A study of Mus musculus with 8 samples.

Results

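Genes of excitation-contraction coupling and calcium handling were followed in mouse quadriceps, the large thigh muscle, after loss of Gpcpd1, which encodes an enzyme that splits glycerophosphocholine. The members were 34 named genes, matched by mouse symbol, of the 54532 genes in each deposited table, and 32 of them had enough reads to be tested. RNA came from mice aged 3 months on chow diet. Control mice were Gpcpd1 Flox/Flox without the Mck Cre transgene (4 libraries), and knockout mice were Gpcpd1 Flox/Flox and MckCre positive (4 libraries), so floxed alleles were shared by all mice and Cre was carried by the knockouts alone. Mck is the muscle creatine kinase promoter, which is active in muscle fibres, and Gpcpd1 was measured here in whole tissue and not by cell type. Effects of Cre itself and of Gpcpd1 loss cannot be told apart in this design, and the labels do not say that each library is a separate mouse.

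A muscle fibre contracts when the membrane potential is converted into a calcium signal. At the triad, where a transverse tubule meets the sarcoplasmic reticulum, a voltage-sensing calcium channel in the tubule opens the ryanodine receptor of the store, calcium floods the cytosol, and pumps of the store then take it back up. Calcium-binding proteins buffer it in the store and in the cytosol, calmodulin and its kinases read the signal, and store-operated and mitochondrial channels provide further routes of entry.

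QuantSeq FWD libraries, whose reads come from the 3′ ends of transcripts, held 4404116 to 5405999 reads. Values are given in CPM, the usual depth-scaled read count, here on totals scaled by TMM. Members held 4.60% to 4.73% of control reads and 4.20% to 4.56% of knockout reads. Gpcpd1 itself stood at 159, 156, 135 and 149 CPM in controls 1 to 4 and at 30.4, 35.7, 35.9 and 38.6 CPM in knockouts 1 to 4, 23.5% of the control mean (exact two-sided permutation p = 0.0286); where its 3′ reads lie relative to the deleted part is not given in the labels. The labelled tissue was checked by fibre markers: 8 fast-fibre genes summed to 156243 to 192093 CPM over the 8 libraries (3 of 8 passed the test, Mylpf and Myl1 higher and Myh4 lower), and 7 slow-fibre genes to 22.4 to 58.8 CPM in controls and 166 to 448 CPM in knockouts. Knockout 1 was the library with the highest slow-fibre sum. Without 1 of these genes, Myl3, the sums overlapped, at 14.6 to 25.3 CPM in controls and 18.4 to 49.6 CPM in knockouts.

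In the knockout, 4 of the 32 tested members rose and 5 fell (edgeR, quasi-likelihood F test, adjusted p below 0.05). Cacnb1, Cacng6, Casq2 and Hrc rose, while Cacna2d1, Jph1, Jph2, Fkbp1a and Camk2a fell. Over all 10691 tested genes 15.7% passed this test in either direction, 8.87% higher and 6.8% lower, against 28.1% of the members. Members were abundant, with a median of 368 CPM, and of the 319 tested genes at or above that level 34.8% passed, beside 5 of the 16 members there. The changes were small: no member differed by 1 or more on the log2 scale, the range was -0.39 to 0.56, and the median size was 0.20 among members and 0.20 among all genes. The median signed log2 fold change was 0.03 for members and 0.01 for all genes. In 13 members the knockout libraries did not overlap the controls, 7 of them higher and 6 lower, and the background for this count was 19.2%. The number of members that fell was 3 without control 3, 2 without knockout 2 and 3 without knockout 4. In bulk tissue, fewer cells of a type and less RNA per cell cannot be told apart.

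**Figure D1:**
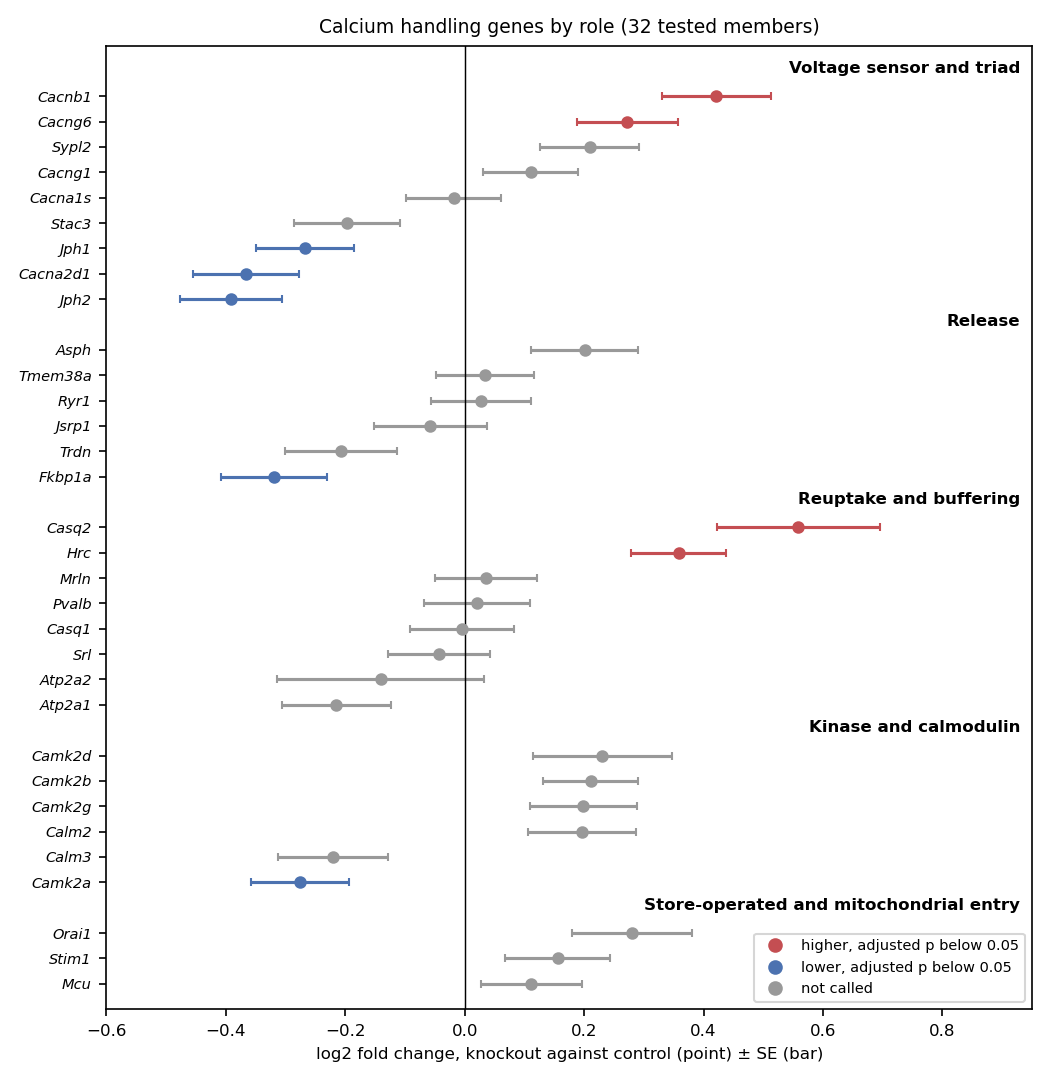
Log2 fold change of each of the 32 tested members in knockout against control muscle, grouped by role, with bars for the SE. Members higher in the knockout are red, lower ones blue and those that did not pass the test grey. The voltage sensor and triad group holds 5 of the 9 changed members, and no point lies beyond 0.56 from 0 on the log2 scale. Of all tested genes 15.7% passed.

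Promoter sequences are shown for members that moved in opposite directions, since E-boxes are bound by myogenic transcription factors. RefSeq promoters of build GRCm38.p6, running from 250 bases before to 50 after a gene's start, were found for 22 of the 34 members. The palindromic E-box CAGCTG, which reads alike on both strands, occurred in 10 of the 25 member promoters, 40%, and in 16.3% of all 32851 promoters of this length. The other motif searched, the MEF2 consensus, occurred in 0 of the 25 member promoters and in 0.557% of all. The median GC content was 62.3% in the member promoters and 52.7% in all. Below, capitals mark the E-box, which begins 9 bases before the start of Jph2 (chr2:163397944-163398243, minus strand), 32 before that of Fkbp1a (chr2:151542233-151542532, plus strand) and 22 before that of Hrc (chr7:45335019-45335318, plus strand). Casq2 (chr3:102086165-102086464, plus strand) has no match in this window and is shown for contrast.
Jph2: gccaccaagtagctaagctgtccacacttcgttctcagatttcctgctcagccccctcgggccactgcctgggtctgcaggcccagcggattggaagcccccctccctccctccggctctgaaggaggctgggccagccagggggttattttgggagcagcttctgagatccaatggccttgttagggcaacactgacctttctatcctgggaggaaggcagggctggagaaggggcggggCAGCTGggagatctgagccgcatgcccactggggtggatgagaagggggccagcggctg
Fkbp1a: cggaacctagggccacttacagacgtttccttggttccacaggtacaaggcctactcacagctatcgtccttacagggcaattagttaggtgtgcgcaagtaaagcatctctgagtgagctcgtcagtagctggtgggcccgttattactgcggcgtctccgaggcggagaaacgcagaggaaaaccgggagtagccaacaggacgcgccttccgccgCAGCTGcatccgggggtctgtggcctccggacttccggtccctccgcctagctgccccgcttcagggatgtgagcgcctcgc
Hrc: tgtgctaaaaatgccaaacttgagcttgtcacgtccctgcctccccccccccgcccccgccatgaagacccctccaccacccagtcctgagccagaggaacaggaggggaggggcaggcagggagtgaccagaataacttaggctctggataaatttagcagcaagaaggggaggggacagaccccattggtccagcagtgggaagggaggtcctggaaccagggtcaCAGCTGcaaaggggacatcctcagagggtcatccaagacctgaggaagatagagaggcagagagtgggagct
Casq2: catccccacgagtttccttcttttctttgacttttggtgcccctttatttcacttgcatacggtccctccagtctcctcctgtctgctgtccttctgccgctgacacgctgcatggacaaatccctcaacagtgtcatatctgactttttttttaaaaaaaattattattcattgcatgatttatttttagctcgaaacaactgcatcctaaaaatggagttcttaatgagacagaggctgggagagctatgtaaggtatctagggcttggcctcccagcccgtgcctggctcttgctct
Counted by gene, since both Jph2 windows hold the same E-box, it occurred in 2 of 3 members that fell, 1 of 4 that rose and 5 of 14 that did not pass, among those with a promoter in the table. These counts are a description with no test.

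Over all tested genes 15.7% passed the edgeR test, and 34.8% of those at or above the members' median level. Leaving out 1 library at a time gave 1 to 2 triad members higher and 2 to 3 lower. With all libraries, the voltage sensor and triad group had 5 of 9 members changed, 2 higher and 3 lower. Cacna1s, the pore-forming and voltage-sensing subunit, was not among them: it stood at 781, 875, 767 and 844 CPM in controls 1 to 4 and at 822, 825, 814 and 765 CPM in knockouts 1 to 4 (edgeR adjusted p = 0.915 for a log2 fold change of -0.02 with SE 0.08). The groups overlapped. Its auxiliary subunits moved in different directions. Cacnb1 (chromosome 11, 98001508 to 98023034, minus strand), the intracellular beta subunit that brings the channel to the triad, was measured at 128, 175, 145 and 141 CPM in controls and 199.8, 191, 197 and 203 CPM in knockouts. Every knockout lay above every control, with control 2 the nearest, and Cacnb1 rose from 147 ± 19.7 to 197 ± 5.19 CPM (SD, n = 4 each; edgeR adjusted p = 0.00193 for a log2 fold change of 0.42 with SE 0.09). Cacng6 (chromosome 7, 3424195 to 3435667, plus strand), a transmembrane gamma subunit, had 441, 519.9, 478 and 411 CPM in controls and 549, 582, 555 and 548 CPM in knockouts. The groups did not overlap and Cacng6 rose (edgeR adjusted p = 0.0286 for a log2 fold change of 0.27 with SE 0.08), a call lost without control 1, 3 or 4 or without knockout 2, 3 or 4, where its adjusted p reached 0.0940. The other gamma subunit, Cacng1, ran from 268 to 302 CPM in controls and from 293 to 328 CPM in knockouts, with overlapping groups (edgeR adjusted p = 0.400 for a log2 fold change of 0.11 with SE 0.08).

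Cacna2d1 (chromosome 5, 15934691 to 16374511, plus strand), the extracellular auxiliary subunit of the same channel, moved the other way. It had 678, 630.0, 709 and 769 CPM in controls 1 to 4 and 615, 489.8, 538 and 519 CPM in knockouts 1 to 4. Knockout 1 lay just below control 2, the groups did not overlap, and Cacna2d1 fell to 77.6% of the control mean (edgeR adjusted p = 0.00529 for a log2 fold change of -0.37 with SE 0.09). Stac3, the adaptor that links the voltage sensor to calcium release, had a control range of 157 to 169 CPM and a knockout range of 125 to 163 CPM (edgeR adjusted p = 0.141 for a log2 fold change of -0.20 with SE 0.09); knockout 3 alone lay inside the control range.

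The junctophilins, which tether the sarcoplasmic reticulum to the transverse tubule, both fell. Jph2 (chromosome 2, 163336242 to 163397993, minus strand) stood at 1319.8, 1585, 1561 and 1482 CPM in controls 1 to 4 and at 1204, 1057, 1201 and 1074 CPM in knockouts 1 to 4. All knockouts lay below all controls, and Jph2 fell to 76.3% of control (edgeR adjusted p = 0.00220 for a log2 fold change of -0.39 with SE 0.09). Jph1 (chromosome 1, 16964560 to 17097889, minus strand) had 415, 343, 389 and 403 CPM in controls and 314, 320.4, 337 and 316 CPM in knockouts. Its groups were separated by a small gap between control 2 and knockout 3, and Jph1 fell (edgeR adjusted p = 0.0266 for a log2 fold change of -0.27 with SE 0.08); the call was lost without control 1, 3 or 4 or without knockout 2 or 4. Exons of Jph1 overlap the antisense gene Gm28376, and those of Cacnb1 the antisense gene Gm11629, and reads of these pairs cannot be told apart where counting ignores strand. The summed level of Jph1 and Jph2 was 1875 ± 96.9 CPM in controls and 1456 ± 84.2 CPM in knockouts (SD, n = 4 each). The share of Jph2 in the reads of the pair was 79.2% ± 2.58 in controls and 77.9% ± 1.13 in knockouts (SD, n = 4 each), with overlapping groups (exact two-sided permutation p = 0.371, adjusted over 4 shares p = 0.495). Sypl2, mitsugumin, a membrane protein of the triad, had knockout values of 393 to 429 CPM, all above the control values of 323 to 386 CPM, but did not pass the test (edgeR adjusted p = 0.0917 for a log2 fold change of 0.21 with SE 0.08).

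**Figure D2:**
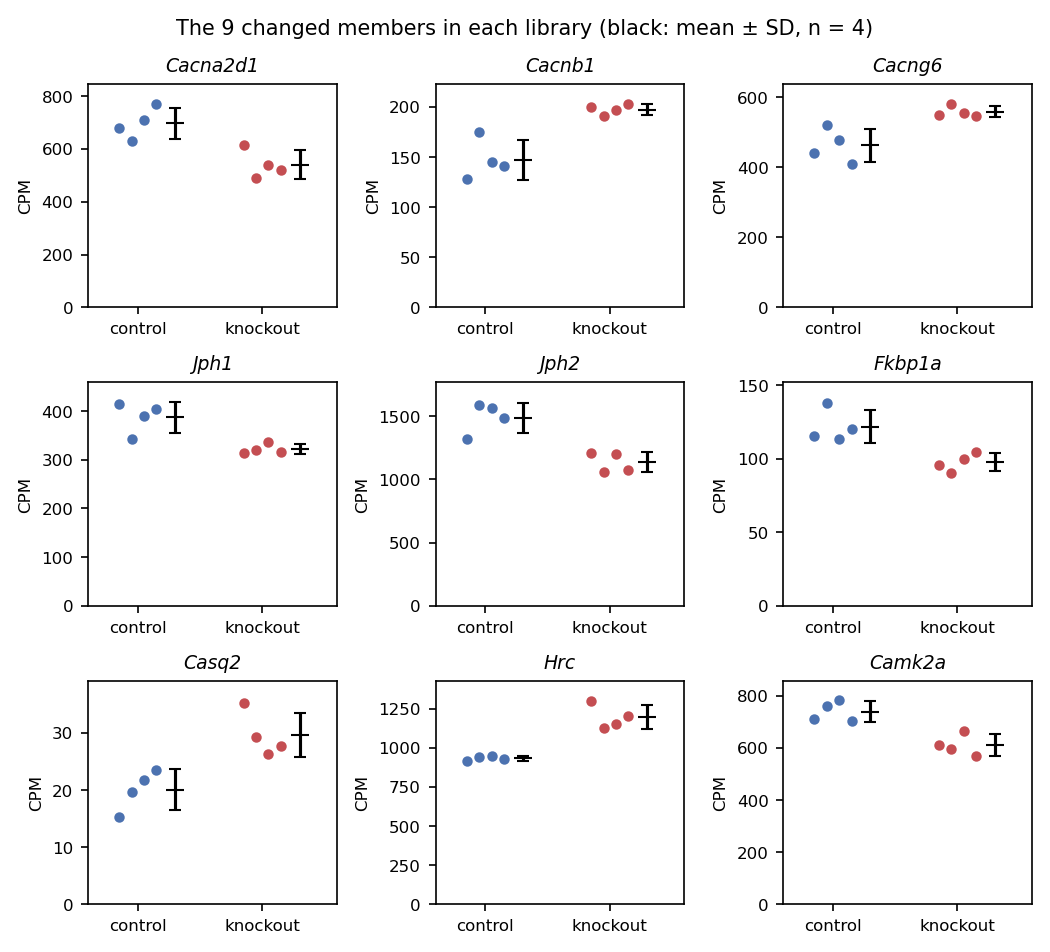
CPM of the 9 changed members in each of the 4 control (blue) and 4 knockout (red) libraries, with the mean ± SD in black and axes from 0. In each panel the groups are separate; the gap is small where Jph1 in knockout 3 (337 CPM) approaches control 2 (343 CPM).

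Of the 6 release genes 1 changed, Fkbp1a, which fell, beside 15.7% of all tested genes that changed. Ryr1, the ryanodine receptor that releases calcium from the store, stood at 2626, 2889, 2931 and 3003 CPM in controls 1 to 4 and 3239, 2768, 2853 and 2808 CPM in knockouts 1 to 4 (edgeR adjusted p = 0.876 for a log2 fold change of 0.03 with SE 0.08). Its groups overlapped, and the sign of this small value turned under 3 alternatives. Fkbp1a (chromosome 2, 151542483 to 151561692, plus strand), an immunophilin that binds the ryanodine receptor and also other partners, had 116, 138, 113 and 120.2 CPM in controls and 95.9, 90.1, 99.96 and 105 CPM in knockouts. The groups did not overlap and Fkbp1a fell (edgeR adjusted p = 0.0138 for a log2 fold change of -0.32 with SE 0.09), with an adjusted p of 0.0607 without knockout 2.

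The other release genes did not pass. Trdn, triadin, which anchors calsequestrin at the receptor, was measured at 3296, 3415, 3495 and 2909 CPM in controls and 2451, 3138, 2642 and 3129 CPM in knockouts (edgeR adjusted p = 0.144 for a log2 fold change of -0.21 with SE 0.09). Controls 1 to 3 lay above all knockouts, and control 4 lay among them. Asph, a locus that encodes junctin as well as an aspartyl hydroxylase, ran from 413 to 485 CPM in controls and from 446 to 560.1 CPM in knockouts (edgeR adjusted p = 0.137 for a log2 fold change of 0.20 with SE 0.09), and 3′ reads cannot be assigned to its products here. Jsrp1, a junctional protein of the sarcoplasmic reticulum, had 1248 to 1634 CPM in controls and 1235 to 1529 CPM in knockouts (edgeR adjusted p = 0.748 for a log2 fold change of -0.06 with SE 0.09). Tmem38a, a cation channel that balances charge during release, had 1192 to 1442 and 1305 to 1387 CPM (edgeR adjusted p = 0.838 for a log2 fold change of 0.03 with SE 0.08). The groups overlapped in both.

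For reuptake and buffering, Casq2 and Hrc rose among the 8 members tested, beside 8.87% of all tested genes that rose. Atp2a1, the calcium pump of fast fibres, stood at 9201, 9123, 9178 and 10573 CPM in controls 1 to 4 and at 9119, 7612, 8741 and 7333 CPM in knockouts 1 to 4. The highest knockout, knockout 1, lay just below control 2, the lowest control, and the test was not passed (edgeR adjusted p = 0.117 for a log2 fold change of -0.21 with SE 0.09). With library totals alone its adjusted p was 0.0460, and without knockout 1 it was 0.0403. Atp2a2, the pump of slow fibres and heart, had 15.7, 26.8, 16.6 and 21.4 CPM in controls and 24.5, 16.6, 15.98 and 16.2 CPM in knockouts, with overlapping groups (edgeR adjusted p = 0.647 for a log2 fold change of -0.14 with SE 0.17). Its share in the reads of the pair was 0.212% ± 0.0555 in controls and 0.222% ± 0.0351 in knockouts (SD, n = 4 each) (exact two-sided permutation p = 0.714, adjusted over 4 shares p = 0.714).

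Of the small membrane peptides that inhibit these pumps, 1 had enough reads to be tested and did not pass. Mrln, myoregulin, ran from 111 to 129 CPM in controls and from 113 to 129 CPM in knockouts (edgeR adjusted p = 0.836 for a log2 fold change of 0.04 with SE 0.09). Sln, sarcolipin, was not tested, with 2, 6, 2 and 3 reads in controls 1 to 4 and 5, 4, 7 and 1 in knockouts 1 to 4. Pln, phospholamban, was not tested either, with 3, 7, 11 and 5 and 7, 4, 5 and 7 reads in the same order. Most of these Sln and Pln counts lay near a floor of 3 reads, and no difference was detectable at this depth.

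Calsequestrin, which binds calcium inside the store, is encoded by 2 genes. Casq1, the fast-fibre calsequestrin, stood at 1501, 1646, 1707 and 1346 CPM in controls 1 to 4 and 1459.7, 1621, 1567 and 1533 CPM in knockouts 1 to 4, with the knockouts inside the control range (edgeR adjusted p = 0.982 for a log2 fold change of -0.0044 with SE 0.09). Casq2 (chromosome 3, 102086415 to 102146514, plus strand), the calsequestrin of slow fibres and heart, had 15.3, 19.7, 21.7 and 23.5 CPM in controls and 35.2, 29.2, 26.4 and 27.7 CPM in knockouts. The groups did not overlap, knockout 1 was the highest, and Casq2 rose from 20.1 ± 3.55 to 29.6 ± 3.88 CPM (SD, n = 4 each; edgeR adjusted p = 0.00556 for a log2 fold change of 0.56 with SE 0.14). The share of Casq2 in the reads of the pair was 1.01, 1.18, 1.26 and 1.72% in controls and 2.35, 1.77, 1.66 and 1.78% in knockouts. Here control 4 lay above knockout 3, so the shares overlapped, and the exact two-sided permutation p was 0.0571 (adjusted over 4 shares p = 0.114).

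Slow-fibre markers were measured in the same libraries as Casq2. Of 7 such genes 3 were tested and 1 passed, the myosin light chain gene Myl3, at 7.75, 33.4, 26.04 and 27.7 CPM in controls 1 to 4 and 398, 171, 148 and 158 CPM in knockouts 1 to 4. The whole list summed to 22.4, 58.8, 42.1 and 51.1 CPM in controls and 448, 192, 166 and 177 CPM in knockouts (exact two-sided permutation p = 0.0286, adjusted over 11 library measures p = 0.105). With 4 against 4 libraries this adjusted p could not fall below 0.05 unless most of the 11 measures separated the groups. Without Myl3 the sums were 14.6, 25.3, 16.1 and 23.3 CPM and 49.6, 21.01, 18.4 and 18.99 CPM, where the groups overlapped and knockout 1 was again the highest. The defining markers were scarce: the slow myosin gene Myh7 had 0, 1.42, 0.196 and 3.36 CPM in controls and 3.56, 0.382, 0.372 and 0.427 CPM in knockouts, and the slow troponin genes Tnni1 and Tnnt1 reached at most 2.72 and 16.97 CPM, in knockout 1. Without knockout 1, Casq2 had a log2 fold change of 0.46 (edgeR adjusted p = 0.0238). The part of fibre makeup in the rise of Casq2 was not tested.

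**Figure D3:**
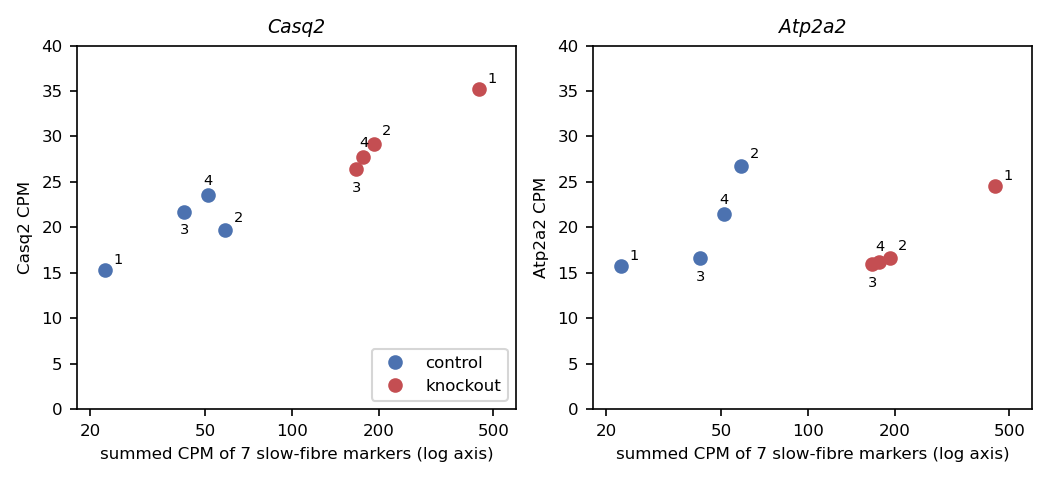
CPM of Casq2 (left) and Atp2a2 (right) against the summed CPM of 7 slow-fibre markers on a log axis, with 1 point per library labelled by its replicate number. Knockout 1 has the highest marker sum and the highest Casq2 level, 35.2 CPM, while Atp2a2 in the knockouts lies within the control range of 15.7 to 26.8 CPM. Myl3 holds most of the marker sum in the knockouts, and without it the sums of the groups overlap.

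Hrc (chromosome 7, 45335290 to 45338974, plus strand), the histidine-rich calcium-binding protein of the store, rose. It had 913, 941, 948 and 929 CPM in controls 1 to 4 and 1301, 1126, 1152 and 1203 CPM in knockouts 1 to 4. The controls lay within a narrow band, every knockout lay above it, and the mean went from 933 ± 15.2 to 1196 ± 77.2 CPM (SD, n = 4 each; edgeR adjusted p = 0.00250 for a log2 fold change of 0.36 with SE 0.08). Srl, sarcalumenin, another protein of the store lumen, had 1051 to 1275 CPM in controls and 1001 to 1160.1 CPM in knockouts, overlapping (edgeR adjusted p = 0.797 for a log2 fold change of -0.04 with SE 0.09). Pvalb, parvalbumin, the cytosolic buffer of fast fibres and the member with the most reads, stood at 15747, 18471, 17829 and 15549 CPM in controls and 15897, 18228, 17991 and 16462 CPM in knockouts (edgeR adjusted p = 0.914 for a log2 fold change of 0.02 with SE 0.09), again with overlapping groups.

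Of the 6 kinase and calmodulin members 1 changed, Camk2a, which fell, beside 15.7% of all tested genes that changed. The calcium and calmodulin-dependent kinase CaMKII is built from subunits of 4 genes. Camk2a (chromosome 18, 60925618 to 60988152, plus strand) held the most reads of the 4, with 709, 762, 783 and 704 CPM in controls 1 to 4 and 613, 594, 667 and 569 CPM in knockouts 1 to 4. The groups did not overlap and Camk2a fell (edgeR adjusted p = 0.0212 for a log2 fold change of -0.28 with SE 0.08), a call lost without control 3 or without knockout 2 or 4. Camk2b had 149.9, 149.6, 148 and 156 CPM in controls and 177, 162, 180.2 and 178 CPM in knockouts, with every knockout above every control, but did not pass (edgeR adjusted p = 0.0740 for a log2 fold change of 0.21 with SE 0.08). Camk2g, at 72.2 to 83.4 CPM in controls and 83.6 to 101 CPM in knockouts, was separate by less than 1 CPM and did not pass (edgeR adjusted p = 0.142 for a log2 fold change of 0.20 with SE 0.09). Camk2d, at 25.5 to 35.3 and 32.7 to 40.2 CPM, overlapped (edgeR adjusted p = 0.199 for a log2 fold change of 0.23 with SE 0.12).

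As a description, with no test, the makeup of CaMKII reads differed between the groups. Camk2a held 72.5% to 75.5% of them in controls and 65.4% to 67.9% in knockouts. The share of Camk2b was 14.2% to 16.03% in controls and 18.3% to 20.5% in knockouts, that of Camk2g 7.15% to 8.52% and 9.15% to 10.3%, and that of Camk2d 2.53% to 3.61% and 3.73% to 4.40%. The ranges were separate for all 4 genes, but shares of 1 total are not independent, and a lower Camk2a share raises the others. The sum of the 4 genes was 999 ± 32.01 CPM in controls and 911 ± 52.9 CPM in knockouts (SD, n = 4 each).

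Calmodulin, the calcium sensor that activates these kinases, is encoded by several genes with the same protein product, and Calm2 and Calm3 are the members among them. Calm2 had 129.7, 108, 140.4 and 112 CPM in controls 1 to 4 and 143, 145, 142 and 132 CPM in knockouts 1 to 4 (edgeR adjusted p = 0.155 for a log2 fold change of 0.20 with SE 0.09). Calm3 had 261, 222, 243 and 232 CPM in controls and 176, 210.3, 238 and 198 CPM in knockouts (edgeR adjusted p = 0.111 for a log2 fold change of -0.22 with SE 0.09). Neither passed, and both had overlapping groups; without knockout 3 the adjusted p of Calm3 was 0.0398. How reads shared with other copies of calmodulin sequence were counted is not given in the sources used here, so these levels carry that uncertainty. The same uncertainty holds for the share of Calm3 in the reads of the pair. Within a library this share was 66.8, 67.3, 63.4 and 67.4% in controls and 55.1, 59.3, 62.7 and 59.9% in knockouts. All knockouts lay below all controls. The mean share was 66.2% ± 1.88 in controls and 59.2% ± 3.15 in knockouts (SD, n = 4 each), and the exact two-sided permutation p of 0.0286 was the smallest that 4 against 4 libraries allow. Adjusted over the 4 paralogue shares it was 0.114, and 0.05 is out of reach where 1 share alone separates the groups.

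**Figure D4:**
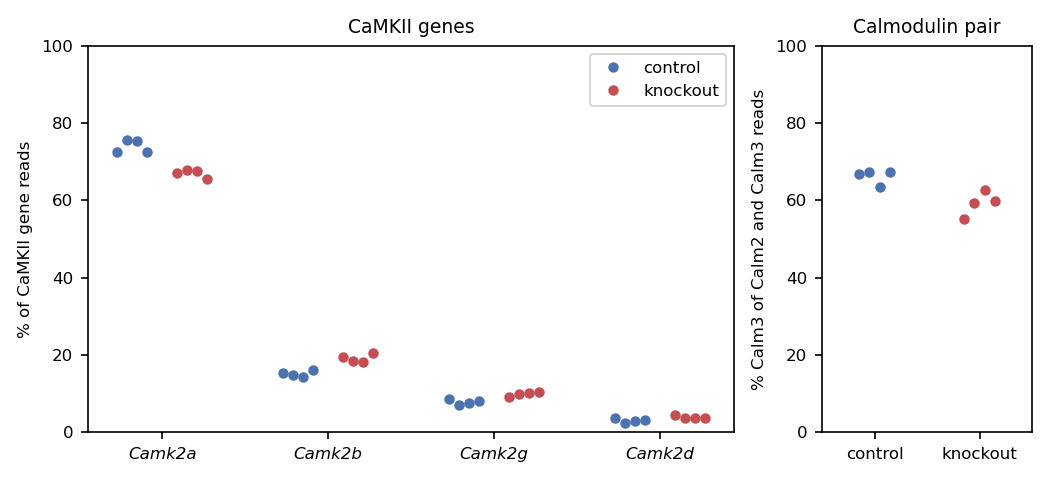
Left, the percent of CaMKII gene reads that each of 4 genes held in each control (blue) and knockout (red) library; right, the percent of Calm3 in the reads of Calm2 and Calm3. Camk2a shares are 72.5% to 75.5% in controls and 65.4% to 67.9% in knockouts, and Calm3 shares run up to 62.7% in knockouts against at least 63.4% in controls.

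None of the 3 entry members passed the test by edgeR (adjusted p 0.0617 to 0.425), while 1 of them, Orai1, had an unadjusted p below 0.05, and DESeq2 and limma voom called 0 as well. Over all tested genes 15.7% passed. All 3 entry members had log2 fold changes above 0, as had 5446 of the 10691 tested genes. Stim1, the calcium sensor of the store, had 222, 212, 218 and 261 CPM in controls 1 to 4 and 273, 235, 271 and 239 CPM in knockouts 1 to 4 (0.16, SE 0.09 on the log2 scale). Orai1, the plasma membrane channel that the sensor opens, had 98.00, 111, 93.00 and 78.4 CPM in controls and 111, 131, 104 and 116 CPM in knockouts (0.28, SE 0.10). Control 2 lay within the knockouts, and Orai1 passed in 4 of 18 alternatives, among them without control 2 and without knockout 3. Mcu, the pore of the mitochondrial calcium uniporter, had 108, 109.9, 105 and 112 CPM in controls and 106, 123, 113 and 128 CPM in knockouts (0.11, SE 0.08), with overlapping groups.

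Beside the members, a list of 60 other calcium genes was examined, of which 59 were found in the tables and 45 tested. In this list 6 rose and 5 fell, 24.4% of those tested against the 15.7% of all genes. The tested genes of the list had a median level of 41.4 CPM, against 14.7 CPM for all tested genes. The part of expression level in this share was not tested. Itpr1, the inositol trisphosphate receptor, a second kind of release channel of the store, had the largest change. It stood at 63.8, 54.9, 58.3 and 61.6 CPM in controls 1 to 4 and at 25.6, 23.3, 27.3 and 25.4 CPM in knockouts 1 to 4, and fell to 42.6% of control (edgeR adjusted p = 6.16e-09 for a log2 fold change of -1.23 with SE 0.10). Exons of Itpr1 overlap the antisense genes Gm44040 and Gm44101, and these reads cannot be told apart where counting ignores strand. The groups were far apart, and the fall of Itpr1 exceeded in size the change of every tested member. Its paralogues Itpr2 (0.18, SE 0.12 on the log2 scale) and Itpr3 (-0.35, SE 0.28) did not pass, and the other ryanodine receptor genes, Ryr2 and Ryr3, were too scarce to test, at no more than 0.853 and 1.86 CPM.

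Genes around store-operated entry differed in direction. Stim2, a paralogue of the store sensor, had 44.2, 49.5, 48.6 and 51.1 CPM in controls 1 to 4 and 30.4, 33.99, 37.3 and 36.3 CPM in knockouts 1 to 4 and fell (edgeR adjusted p = 0.00153 for a log2 fold change of -0.49 with SE 0.10). Saraf, which restrains store-operated entry, had 331, 373, 339.9 and 306 CPM in controls and 399, 448, 394 and 442 CPM in knockouts and rose (edgeR adjusted p = 0.0104 for a log2 fold change of 0.32 with SE 0.08), a call lost without knockout 4. In neither gene did the groups overlap.

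Genes for calcium extrusion also split. The plasma membrane pump gene Atp2b1 fell from 257 ± 20.1 to 193 ± 6.27 CPM (SD, n = 4 each; edgeR adjusted p = 0.000955 for a log2 fold change of -0.41 with SE 0.08). The sodium-calcium exchanger gene Slc8a3 rose from 79.2 ± 10.6 to 110.5 ± 14.2 CPM (edgeR adjusted p = 0.00214 for a log2 fold change of 0.48 with SE 0.10), although knockout 1, at 91.8 CPM, lay below control 1, at 94.3 CPM. The scarcer pump gene Atp2b3 rose from 6.58 ± 0.242 to 9.54 ± 1.18 CPM (edgeR adjusted p = 0.0414 for a log2 fold change of 0.54 with SE 0.18), and this call was lost in 11 of 18 alternatives, among them the omission of any 1 library other than knockout 4.

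Homer2, a scaffold of calcium channels, rose (edgeR adjusted p = 0.00160 for a log2 fold change of 0.54 with SE 0.11), and so did Ppp1r1a, an inhibitor of protein phosphatase (edgeR adjusted p = 5.65e-05 for a log2 fold change of 0.67 with SE 0.10). Dysf, dysferlin, a membrane repair protein also found at transverse tubules, rose (edgeR adjusted p = 0.0293 for a log2 fold change of 0.32 with SE 0.10), a call lost with library totals alone, with DESeq2 and without control 3 or without knockout 2, 3 or 4. Ank1, whose small muscle form links the sarcoplasmic reticulum to the myofibril, fell (edgeR adjusted p = 0.0118 for a log2 fold change of -0.30 with SE 0.08), with an adjusted p of 0.0524 without knockout 2. Of the 6 tested genes for mitochondrial calcium transport beside Mcu, edgeR, DESeq2 and limma voom called 0, and 0 had an unadjusted p below 0.05: among them the uniporter regulators Micu2 (0.19, SE 0.10 on the log2 scale) and Smdt1 (-0.16, SE 0.10).

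**Figure D5:**
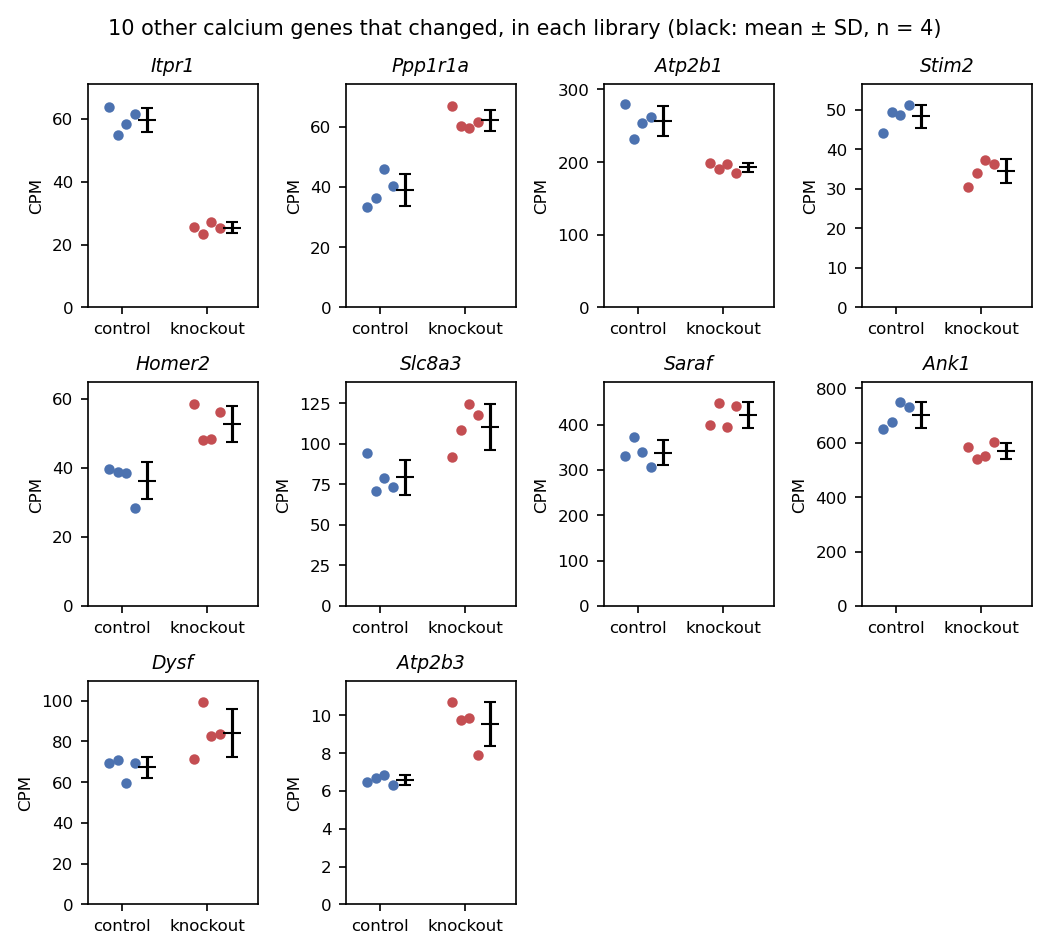
CPM of 10 of the 11 other calcium genes that changed, in each of 4 control (blue) and 4 knockout (red) libraries, with the mean ± SD in black and axes from 0. Itpr1 lies at 54.9 to 63.8 CPM in controls and at 23.3 to 27.3 CPM in knockouts, and Slc8a3 is the panel in which the groups overlap.

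Markers of other cells that a muscle sample can hold were summed in the same libraries. Smooth muscle markers, 0 of 4 tested called by edgeR, DESeq2 or limma voom and 0 with an unadjusted p below 0.05, ran from 67.5 to 88.5 CPM in controls and 55.04 to 111 CPM in knockouts. Fibroblast markers, 1 of 5 lower, ran from 448 to 555 CPM in controls and 368 to 458 CPM in knockouts. Macrophage markers, 3 of 4 tested lower by edgeR, ran from 33.8 to 56.2 CPM in controls and 21.97 to 35.1 CPM in knockouts. Limma voom called 2 of them. The macrophage sums overlapped (exact two-sided permutation p = 0.0571, adjusted over 11 library measures p = 0.157). Over all tested genes 6.8% were lower by edgeR, and 15.7% passed in either direction. Endothelial markers ran from 409.7 to 561 CPM in controls and 459 to 569 CPM in knockouts, and adipocyte markers from 29.4 to 59.7 CPM in controls and 30.9 to 64.9 CPM in knockouts. Nerve and Schwann cell markers ran from 32.5 to 50.1 CPM in controls and 39.8 to 43.3 CPM in knockouts, with the neurofilament gene Nefl at 0 in all 8 libraries. The part of these cells in the members' values was not tested.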

How the data were processed

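Whole-quadriceps RNA from 8 libraries was grouped by the genotype labels, 4 control and 4 knockout, with replicate numbers that follow accession order and pair nothing. Each library has a table of unnormalized gene-level counts, deposited by the authors and keyed by Ensembl identifier, per the file headers. Tools listed in the submitters' processing notes are featureCounts, Subread 1.6.2 and Bowtie2 2.3.4.1, and the builds GRCm38 and mm10; annotation release, strand setting and handling of multiply mapping reads: not given in the sources used here. Exons of 10 members, Cacnb1 and Jph1 among the changed ones, overlap an antisense gene in GENCODE M21 (GRCm38). Exons of Itpr1, Homer2, Ank1 and Dysf, from the list of other calcium genes, also overlap antisense genes there. The same annotation gave the coordinates of genes, while promoter windows were those of RefSeq. Names were matched for 54409 genes.

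Counts were tested in R 4.3.3 with edgeR 4.0.16: filterByExpr (minimum count 10, minimum total 15), TMM scaling, robust quasi-likelihood F test and Benjamini-Hochberg adjustment over 10691 genes, threshold 0.05. SE was taken as the size of the log2 fold change over the root of F. CPM use TMM-scaled totals, and 3 reads correspond to 0.557 to 0.646 CPM, which covers counting error only. Paralogue shares and library measures were compared by exact permutation (smallest p 0.0286). P-values measure the spread between libraries. Within a genotype, chi-square over its degrees of freedom ran from 2.33 to 7.96, so no pair of libraries differed by counting error alone. This does not show that the libraries came from separate mice. The fit was tested on simulated data. Members, lists and tests were chosen with earlier results of these data known; named were all members, Gpcpd1, the other calcium genes that passed and those needed to describe a subclass, and defining slow-fibre markers, while Mylpf, Myl1, Myh4 and Nefl were chosen after their values were seen. Alternatives were DESeq2 1.42.0, limma 3.58.1 voom, other scalings and filters, thinning, the library number as covariate and leaving out each library. Library numbers were 9, 10, 15 and 16 in controls and 11 to 14 in knockouts. A linear term in the number is balanced between these groups, so it can separate only a steady drift with library order from genotype. The knockouts form an unbroken run of numbers between the controls. An effect shared by that run cannot be told apart from genotype. Results for some listed genes are not reported here.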

Additional observations from a re-analysis of the deposited data

Results flagged for a closer look

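In 7 of 118 groups of 4 libraries 1 library stood far from the other 3, where chance gives about 1 in 20. Atp2a1 was 10573 CPM in control 4 against at most 9201 CPM in the other controls. Atp2a2 was 24.5 CPM in knockout 1 against at most 16.6 CPM in the other knockouts. Dysf was 59.5 CPM in control 3 and at least 69.4 CPM in the other controls, and Homer2 was 28.4 CPM in control 4 and at least 38.6 CPM in the others. The Calm3 share of the reads of Calm2 and Calm3 was 63.4% in control 3 and at least 66.8% in the other controls. Knockout 1 had a summed slow-fibre marker level of 448 CPM, against at most 192 CPM in the other knockouts, and a summed smooth muscle marker level of 111 CPM, against at most 64.4 CPM.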

How the results depend on the processing

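Leaving out 1 library at a time gave 3 to 5 members higher and 2 to 6 lower, 4 to 6 other calcium genes higher and 4 to 5 lower, and 720 to 967 of all genes higher and 578 to 761 lower. With library totals alone 4 members were higher and 7 lower, Trdn and Atp2a1 being the additions, and 829 of all genes were higher against 901 lower. Cacna2d1, Cacnb1, Jph2, Casq2, Hrc, Itpr1, Stim2, Atp2b1, Slc8a3, Homer2 and Ppp1r1a passed under all 18 alternatives run. Members that did not pass and lay near 0 changed sign when a library was left out: Cacna1s (-0.0610 to 0.00411), Ryr1 (-0.0332 to 0.0516), Jsrp1 (-0.13 to 0.0177), Tmem38a (-0.0138 to 0.0707), Atp2a2 (-0.31 to 0.0157), Mrln (-0.00612 to 0.0684), Casq1 (-0.0710 to 0.0322), Srl (-0.0834 to 0.0112) and Pvalb (-0.0216 to 0.0542), each as the range of log2 fold change. Library totals alone gave values of -0.00995 for Ryr1, -0.00236 for Tmem38a, -0.00201 for Mrln and -0.0140 for Pvalb, and limma voom gave 0.000579 for Casq1. The difference in the Atp2a2 share ran from -0.00464 to 0.0376 percentage points when a library was left out, and was below 0 without control 1 and without knockout 1; the other shares kept their direction. The Gpcpd1 level was 22.7% to 24.5% of control. The causes of these shifts were not tested. No paired analysis was possible because library numbers in the labels are not shared between the genotypes. Depth limits Sln and Pln, with 1 to 11 reads per library.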
